A study of Drosophila melanogaster with 96 samples.

Results

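Aminoacyl-tRNA synthetases join each amino acid to its transfer RNA (tRNA), the step that sets which amino acid a codon yields. The genes described here are those whose FlyBase symbol is an amino acid abbreviation, or a pair of them, followed by RS, with an optional alpha- or beta- in front and an optional -m at the end. Of the 17370 genes counted, 34 matched. They comprise 19 genes for enzymes of the cytosol and 15 for enzymes of the mitochondrion, which carry the -m ending. LeuRS, the cytosolic enzyme for leucine, was not analysed here.

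RNA was measured in 96 single whole flies of Drosophila melanogaster, all of the white-eyed laboratory strain w1118, virgin, aged 3 days and kept alone in the wells of a feeding plate. Every fly was given chemically defined liquid food for 24 h, starved on saline for 6 h, and refed that food carrying a red dye (sulforhodamine B) and dimethyl sulfoxide (DMSO), a solvent for drugs, at 0.1, 0.2 or 0.4% by volume or at none. Refeeding lasted 0, 2, 4 or 8 h, which with sex and food makes 32 groups, each of 3 flies. Each time had its own plate, so a difference between times cannot be told apart from one between plates, and each fly's RNA was mixed with RNA of other insects before sequencing. A whole fly is a mixture of tissues, so fewer cells of a type and less RNA per cell cannot be told apart in any result below.

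Eukaryotic cells make protein in both the cytosol and the mitochondrion, and the nucleus encodes a synthetase for each. The mitochondrial enzymes are imported and charge the tRNAs that read the few messages of the mitochondrial genome, which encode parts of the respiratory chain. Some enzymes depart from the plan of a single chain for a single amino acid. GluProRS holds the enzymes for glutamate and proline in 1 protein, alpha-PheRS and beta-PheRS are the subunits of the cytosolic phenylalanine enzyme, and in human cells the genes for the glycine and lysine enzymes serve both compartments. No matched symbol with the -m ending stood for glycine, lysine, glutamine, histidine or threonine.

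The libraries held 958896 to 9215796 gene counts, of which the 34 synthetases took 802 to 24931. Levels are given as CPM, a library's counts scaled to a common total, with TMM factors within the sex, so CPM values of females and males are on separate scales unless stated. The library labelled female, 8 h, 0.4% DMSO, replicate 3 carried transcripts of male organs: 11 testis markers summed to 3827 CPM and 7 accessory gland markers to 5481, where the medians of the 48 female libraries were 26.7 and 0. Where values without it were computed, results that rest on it are given with and without it. The library labelled male, 4 h, 0.4% DMSO, replicate 1 was the shallowest, with 958896 counts, and in it 3 counts equal 5.72 CPM.

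Levels can be set beside each other only per length, as median CPM per kb of exon over the 48 libraries of a sex. In females the cytosolic LysRS led with 81.3 CPM per kb (quartiles 74.7 to 85.9). SerRS, AspRS, TyrRS, AsnRS and ThrRS followed between 73.7 and 69.2, each with quartiles that overlap those of its neighbours. AlaRS came next at 55.8 (51.9 to 59.8), below the quartiles of those 6. The other cytosolic members lay between 47.0 for alpha-PheRS and 24.3 for CysRS, and 14 of the 15 mitochondrial members below all of the cytosolic ones. The exception was PheRS-m, the single-chain phenylalanine enzyme of the mitochondrion, at 26.6 CPM per kb. The lowest member in females was GluRS-m, which charges glutamate, at 4.08.

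The order was another one in males. TrpRS-m, the mitochondrial tryptophan enzyme, led all 34 members with 150.0 CPM per kb (120 to 163), and CysRS-m, the mitochondrial cysteine enzyme, came second with 57.6 (50.1 to 62.7). In females they held ranks 22 and 30. Behind them in males stood TrpRS and TyrRS at 33.7 each, SerRS at 28.6 and PheRS-m at 27.2. ValRS-m, the mitochondrial valine enzyme, held rank 16 in males, with 13.2 CPM per kb, and rank 32 in females. The lowest member in males was IleRS-m, for isoleucine, at 1.40.

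The split between the compartments can be read free of scaling, as the share of a library's synthetase counts. Mitochondrial members made up a median of 15.0% of them in females (9.05 to 22.5%) and 47.1% in males (20.1 to 52.6%). The highest female share came from the library with male transcripts; without it the highest was 17.2%, so that the sexes did not overlap. TrpRS-m, CysRS-m and ValRS-m together made up a median of 2.56% of the synthetase counts in females and 35.8% in males. TrpRS-m by itself gave 1.48% in females and 24.5% in males.

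**Figure D1:**
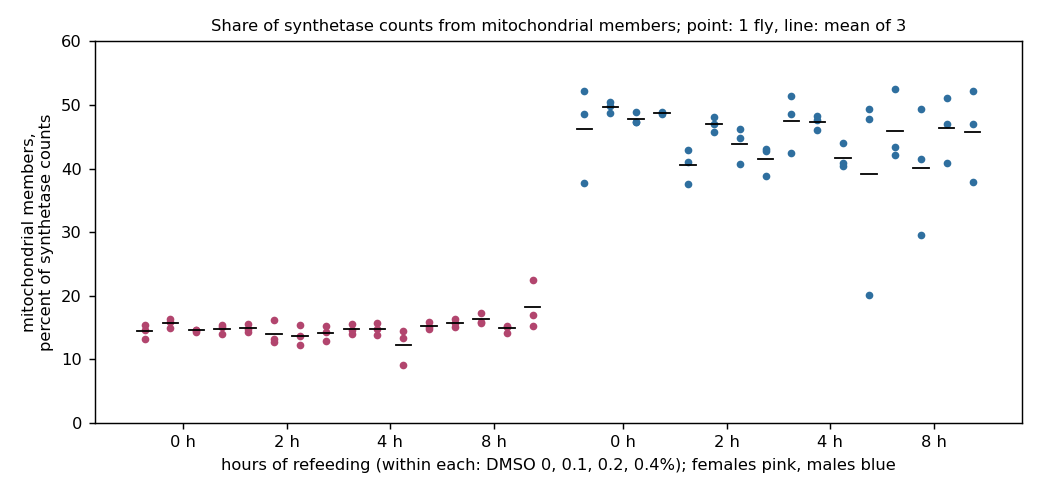
Share of a library's synthetase counts that came from the 15 mitochondrial members (vertical axis, percent, from 0), by hours of refeeding and DMSO level; each point is 1 fly and each line the mean of 3. Female libraries lie between 9.05 and 22.5% and male libraries between 20.1 and 52.6%; the highest female point is the library with male transcripts and the lowest male point the shallowest library.

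The sexes were compared on food without DMSO at 0 and 2 h, where both came from 1 sequencing run, with 6 flies a sex and TMM scaling over these 12 libraries. With edgeR (quasi-likelihood F-test, Benjamini-Hochberg adjusted p below 0.05 over 12069 genes), 29 of the 34 members differed, 25 higher and 4 lower in females. Over all genes tested, 65.9% differed, 26.1% higher and 39.8% lower in females. Of the cytosolic members 17 of 19 were higher in females and 1 was lower; of the mitochondrial members 8 of 15 were higher and 3 were lower. The median log2 change, females minus males, was 0.997 over the cytosolic and 0.58 over the mitochondrial members, beside -0.19 over all genes tested. Scaling by library size alone moved the median of all genes by 0.64 and upper-quartile factors by 0.39, so each change is to be read relative to that median. TrpRS-m, CysRS-m and ValRS-m were lower in females under all 4 scalings run. Set against the median of all genes, TrpRS lay between -0.26 and -0.21 under these scalings, PheRS-m between -0.11 and -0.09 and MetRS between 0.05 and 0.06; as printed, with no such reference, MetRS and PheRS-m were above 0 by library size alone and by upper quartile, and TrpRS by library size alone.

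TrpRS-m differed most between the sexes. Its CPM ran from 14.3 over a median of 28.4 to 32.5 in the 6 females and from 247 over 392 to 463 in the 6 males. Every male lay above every female, by 14.1-fold in the fit (log2 change -3.82, SE 0.22, adjusted p = 1.85e-09, edgeR). CysRS-m ran from 9.85 over 12.03 to 15.9 CPM in females and from 86.2 over 123 to 169 in males, 10.2-fold higher in males (log2 change -3.35, SE 0.19, adjusted p = 1.40e-09, edgeR). ValRS-m ran from 7.92 over 8.85 to 19.4 CPM in females and from 41.4 over 50.2 to 61.0 in males, 4.59-fold higher in males (log2 change -2.20, SE 0.24, adjusted p = 1.53e-06, edgeR). Again no female reached the lowest male for either gene. The testis markers stood beside this difference: their sum over the 48 libraries of a sex ran from 4420 to 9282 CPM in males and, without the library named above, stayed at or below 58.2 in females. Their part in it was not tested.

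The partner of each of these enzymes in the cytosol did not share the direction in all cases. ValRS and CysRS were higher in females, with log2 changes of 0.90 and 0.75. TrpRS, the cytosolic tryptophan enzyme, was the cytosolic member that was lower in females, with a log2 change of -0.40 (SE 0.16, adjusted p = 0.0372, edgeR). Its CPM ranges overlapped, from 38.1 over 47.3 to 61.0 in females and from 49.0 over 64.0 to 80.2 in males. The call of TrpRS held in 4 of the 9 other settings run. In edgeR it was lost by library size alone (0.18, adjusted p = 0.546) and by upper-quartile factors (-0.018, adjusted p = 0.923), scalings that moved all genes up. The call was also lost under settings other than these. With 1 library left out it held in 11 of 12 fits. It was lost without the male library at 0 h, replicate 1 (-0.35, adjusted p = 0.0879, edgeR). MetRS, which also charges the initiator tRNA with methionine, did not pass, with a log2 change of -0.13 (SE 0.17, adjusted p = 0.511, edgeR).

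Among the members higher in females, IleRS-m and LysRS had the largest changes. IleRS-m ran from 8.72 over 12.7 to 15.2 CPM in females and from 2.21 over 4.56 to 6.36 in males, 2.94-fold higher in females (log2 change 1.56, SE 0.20, adjusted p = 6.82e-06, edgeR). LysRS, for lysine, ran from 108 over 138 to 160 CPM in females and from 34.2 over 50.3 to 63.7 in males, 2.78-fold higher in females (log2 change 1.48, SE 0.18, adjusted p = 5.37e-06, edgeR). Neither gene had overlapping ranges. HisRS, AlaRS and IleRS, which charge histidine, alanine and isoleucine, followed with log2 changes of 1.22 (SE 0.15), 1.22 (SE 0.17) and 1.20 (SE 0.15), and adjusted p-values in edgeR of 6.07e-06, 2.11e-05 and 8.08e-06. The lowest female lay above the highest male for each of them: at 65.3 against 46.2 CPM for HisRS, 117 against 93.3 for AlaRS and 112 against 76.2 for IleRS.

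The other 13 cytosolic members higher in females had log2 changes from 0.69 for SerRS to 1.15 for alpha-PheRS, and the subunit partner beta-PheRS had 1.11. None of these 13 had overlapping CPM ranges. They were completed by GlnRS, GluProRS, GlyRS, ThrRS, ArgRS, AsnRS, AspRS, TyrRS, ValRS and CysRS. Mitochondrial members higher in females besides IleRS-m were ArgRS-m, SerRS-m, LeuRS-m, AsnRS-m, AspRS-m, TyrRS-m and AlaRS-m, with log2 changes from 1.04 down to 0.45. With 1 library left out at a time, TyrRS-m was called in 4, AsnRS-m in 5 and AlaRS-m in 7 of 12 fits. ArgRS-m, SerRS-m, LeuRS-m and AspRS-m were called in all 12. GluRS-m (0.93, SE 0.40), ProRS-m (0.38, SE 0.20), MetRS-m (0.14, SE 0.17) and PheRS-m (-0.31, SE 0.15) did not pass. In all, 25 of the 34 members had ranges that did not overlap, against 44.2% of all genes tested.

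**Figure D2:**
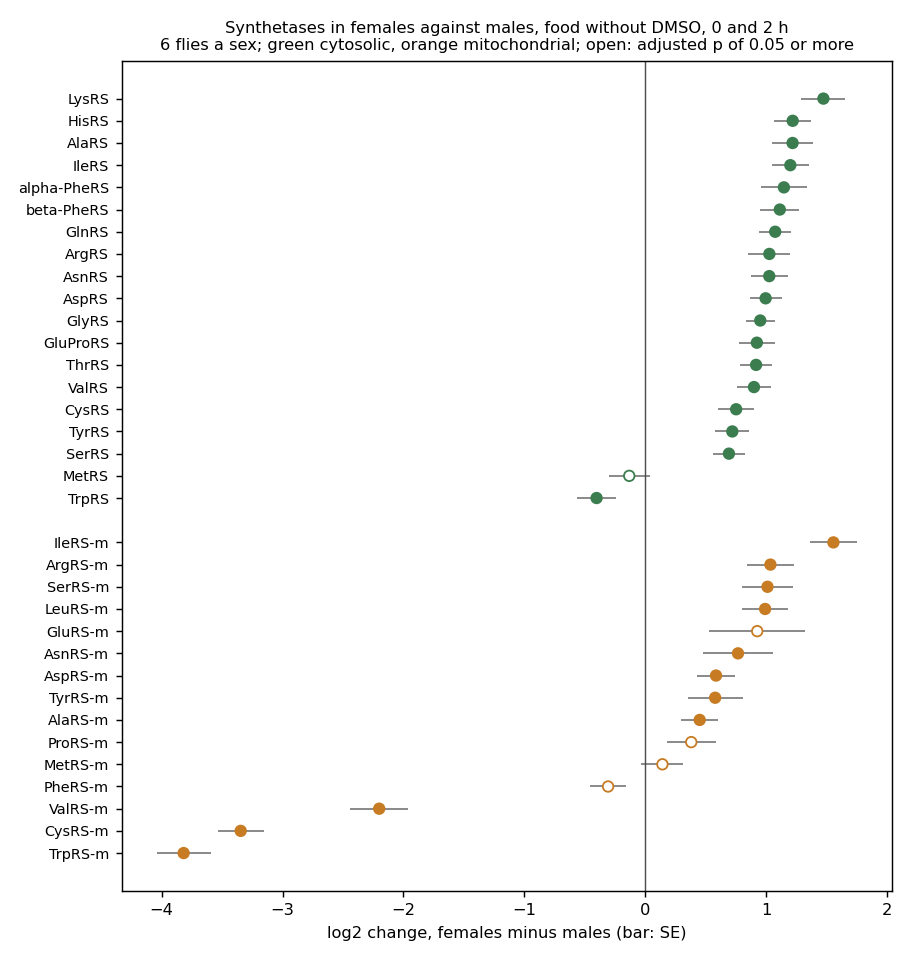
Log2 change between 6 females and 6 males on food without DMSO at 0 and 2 h (horizontal axis, females minus males) for the 34 members; points are edgeR estimates, bars their SE, green cytosolic and orange mitochondrial members, and open points those with an adjusted p of 0.05 or more. TrpRS-m, CysRS-m and ValRS-m stand apart at -3.82, -3.35 and -2.20, while 17 of the 19 cytosolic members lie between 0.69 and 1.48.

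The same comparison can be made in each condition. In each of the 16 pairings of food and time, scaled over its own 6 libraries and given as a description because the run differs in most of them, 17 cytosolic and 10 mitochondrial members had a higher mean in females in all 16. The difference for TrpRS-m lay between -4.09 and -2.30 on the log2 scale, with a median of -3.59. CysRS-m lay between -3.83 and -2.10 and ValRS-m between -2.48 and -0.76. PheRS-m was also lower in females in all 16, by little, between -0.66 and -0.11. MetRS and MetRS-m were higher in females in 14 of 16, and TrpRS in 1 of 16. The pairings include the group that holds the library with male transcripts, and they were not repeated without that library. The upper ends for TrpRS-m and CysRS-m, at -2.30 and -2.10, may therefore rest on it.

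Genes that work with the synthetases were set beside them in the same comparison of the sexes. Of all genes tested in it, 26.1% were higher in females and 39.8% lower. AIMP1, a scaffold of the multisynthetase complex of animals, was higher in females (log2 change 0.82, SE 0.16, adjusted p = 0.000415, edgeR) and was the only one of 5 charging partners tested to pass; AIMP2, AIMP3, GatA and GatB did not. Cytosolic elongation factors were higher in 4 of 5 cases, led by eEF1gamma at 1.23 and eEF1beta at 1.15, and eEF1alpha2 was lower at -0.55. Of 7 mitochondrial translation factors 4 were higher in females and 2 lower. The lower ones were mEFTs, the exchange factor of the mitochondrial elongation factor Tu, at -2.17 (SE 0.17), and mEFTu2, a second gene for that factor, at -2.02 (SE 0.15), while mEFTu1 was higher in females at 0.48 (SE 0.14).

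The lists that follow are to be read beside the same shares of all genes, 26.1% higher and 39.8% lower in females. Ribosomal protein genes gave a wider frame. Those of the cytosolic ribosome were higher in females in 78 of 86 cases and lower in 7, with a median log2 change of 1.02. Those of the mitochondrial ribosome were higher in 39 of 70 and lower in 2, with a median of 0.50. Amino acid stress genes were higher in females in 6 of 13 cases and lower in none, among them AsnS, which makes asparagine, at 0.93 and PEK, a kinase of the integrated stress response, at 0.81. Of 10 amino acid transporters 4 were higher and 3 lower, beside 26.1% and 39.8% of all genes. They ran from slif, a cationic amino acid transporter, at 1.97 and mnd at 1.51 down to bdg at -1.43.

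Refeeding times were compared within each sex, fitted in edgeR on its 48 libraries. The female contrasts average all 4 foods, with 12 flies a time. The male ones leave out the food without DMSO, which is split between runs, and have 9 flies a time. Few synthetases passed. In females no member differed at 2 h against 0 h, where 13.6% of 10060 genes did (9.27% higher, 4.37% lower), or at 4 h, where no gene did (0%); 2 and 3 of the 34 had an unadjusted p under 0.05, and DESeq2 called 1 and 0. At 8 h against 0 h 1 member was higher, beside 3.59% of all genes (0.497% higher, 3.09% lower). At 8 h against 2 h 3 were higher and 1 lower, beside 29.8% (11.1% higher, 18.7% lower). All 4 genes behind these calls were mitochondrial. Among the cytosolic members the smallest p at 2 h belonged to AsnRS, for asparagine, at 0.28 (SE 0.11, adjusted p = 0.0848, edgeR) and at 4 h to ValRS at 0.22 (SE 0.08, adjusted p = 0.162, edgeR).

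TrpRS-m, the gene highest in males, was also the one with the most calls over time in females. In the 12 females at 0 h it ran from 20.4 over a median of 39.0 to 51.9 CPM, at 2 h from 27.2 over 35.9 to 51.9 and at 8 h from 40.2 over 48.1 to 147. The last value is the library with male transcripts; the other 11 flies at 8 h ended at 57.8, and their range overlapped with both earlier times. The log2 change was 0.52 (SE 0.15, adjusted p = 0.0477, edgeR) at 8 h against 0 h and 0.55 (SE 0.15, adjusted p = 0.0113) at 8 h against 2 h. Without that library the first was 0.35 and was no longer called (adjusted p = 0.139), and the second was 0.41 and still called (adjusted p = 0.029). The first call held in 5 of the 24 fits that leave out 1 library of the contrast. It was lost on the 3 foods with DMSO, in a fit that holds the library with male transcripts (0.47, adjusted p = 0.303, edgeR).

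The other calls in females at 8 h against 2 h were of ArgRS-m, LeuRS-m and IleRS-m. LeuRS-m, for leucine, was higher, with 44.7 ± 6.97 CPM at 8 h and 35.3 ± 7.12 at 2 h (SD, n = 12 each; log2 change 0.34, SE 0.11, adjusted p = 0.0221, edgeR). ArgRS-m, for arginine, was higher, with 22.2 ± 3.20 and 17.8 ± 3.43 CPM (log2 change 0.32, SE 0.12, adjusted p = 0.0422, edgeR with 12 flies a time). IleRS-m was lower, with 10.7 ± 1.63 and 14.3 ± 2.82 CPM (log2 change -0.41, SE 0.12, adjusted p = 0.0165, edgeR with 12 flies a time). The ranges of the times overlapped for all 3 genes. TrpRS-m and IleRS-m were called without each of the 24 libraries in turn, LeuRS-m in 14 and ArgRS-m in 6 of the 24 fits. No member was called on the 3 foods with DMSO or on food without it, with 3 flies against 3. On the foods with DMSO the log2 changes were 0.59 for TrpRS-m, 0.23 for LeuRS-m, 0.25 for ArgRS-m and -0.25 for IleRS-m. This fit holds the library with male transcripts and was not repeated without it. On food without DMSO they were 0.43, 0.67, 0.55 and -0.88 in that order; the difference between foods was not tested. Median log2 changes were 0.15 over the mitochondrial and -0.09 over the cytosolic members, beside -0.02 over all genes. Female germline markers were at a median of 1449 summed CPM at 8 h and 1201 at 2 h and nerve markers at 252 and 525; their part was not tested.

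In males 1 cytosolic gene was called at 2 h and 1 mitochondrial gene at 8 h, each against 0 h. SerRS, for serine, rose at 2 h against 0 h, with 63.6 ± 7.90 against 48.4 ± 5.24 CPM (SD, n = 9 each; log2 change 0.39, SE 0.11, adjusted p = 0.0497, edgeR), the only member called beside 1.4% of 12644 genes (0.633% higher). The 9 flies at 2 h ran from 52.8 over 61.8 to 73.7 CPM and those at 0 h from 39.4 over 48.5 to 54.7, so the ranges overlapped at their ends. No member differed at 4 h, where 0.957% of genes did (0.506% higher); 3 members had an unadjusted p under 0.05, DESeq2 called 0, and SerRS had the smallest p (0.33, SE 0.11, adjusted p = 0.132, edgeR). At 8 h against 0 h AspRS-m, the mitochondrial aspartate enzyme, was lower, with 31.0 ± 3.78 against 36.4 ± 2.46 CPM (log2 change -0.23, SE 0.08, adjusted p = 0.0451, edgeR with 9 flies a time), beside 11.3% of all genes (6.95% higher, 4.38% lower). With 1 library left out at a time the call of SerRS held in 4 of 18 fits and that of AspRS-m in 5 of 18. Both were lost without the male library of 0.4% DMSO, replicate 2, whose labels name both 0 h and 8 h, with log2 changes of 0.39 for SerRS (adjusted p = 0.0865) and -0.22 for AspRS-m (adjusted p = 0.0829), in edgeR.

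Between 2 h and 8 h in males SerRS, AlaRS and ValRS were lower, 3 of 34 members beside 4.24% of all genes (3.37% higher, 0.87% lower). SerRS came down to 49.1 ± 6.56 CPM at 8 h (log2 change -0.37, SE 0.11, adjusted p = 0.0376, edgeR with 9 flies a time). AlaRS had 39.0 ± 7.81 at 8 h and 51.8 ± 7.92 CPM at 2 h (log2 change -0.42, SE 0.12, adjusted p = 0.0458, edgeR with 9 flies a time). ValRS had 24.5 ± 3.68 and 32.0 ± 3.57 CPM (log2 change -0.39, SE 0.11, adjusted p = 0.0425, edgeR with 9 flies a time). Of the 19 cytosolic members 18 had a negative log2 change here, and their median was -0.17 beside 0.02 over all genes. Over the 12 males of each time, accessory gland markers had a median sum of 8521 CPM at 8 h and 4717 at 2 h, testis markers 7681 and 6749 and nerve markers 426 and 562. Their part in the changes was not tested. With 1 library left out at a time, SerRS was called in 8, AlaRS in 7 and ValRS in 4 of 18 fits.

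**Figure D3:**
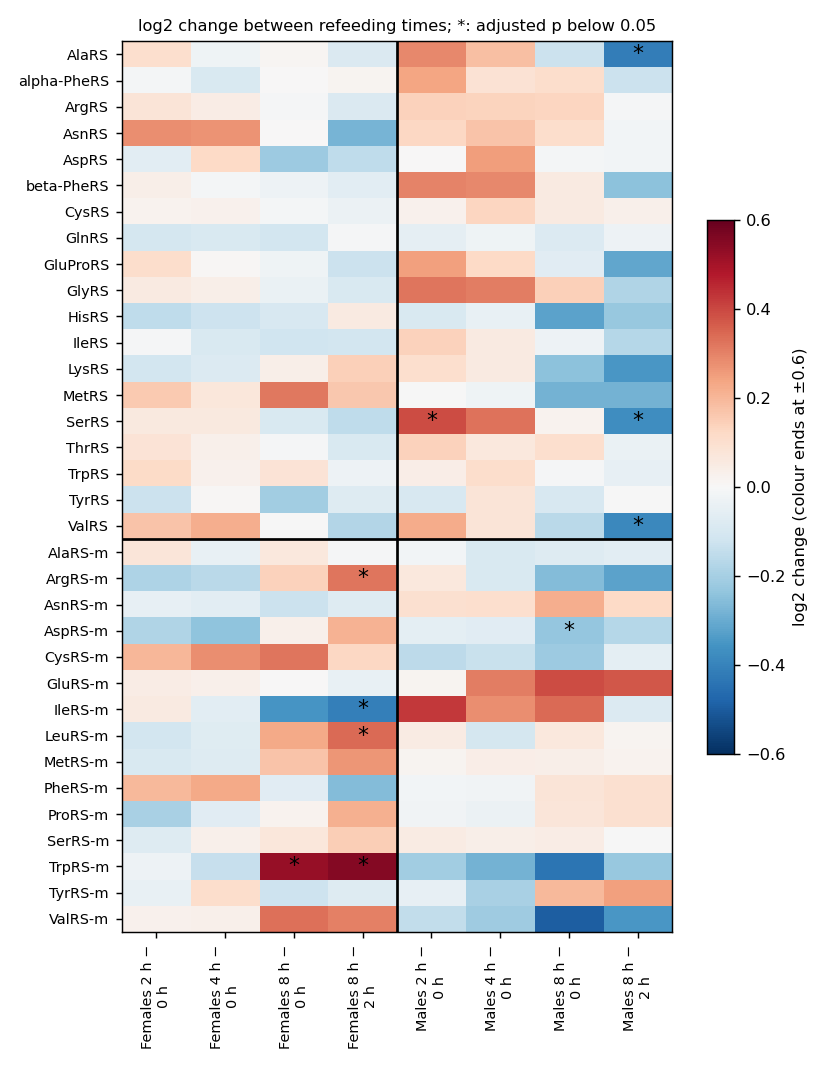
Log2 changes between refeeding times (colour, red higher and blue lower at the first-named time, ending at ±0.6) for the 34 members in females (left 4 columns, 12 flies a time) and males (right 4 columns, 9 flies a time); asterisks mark adjusted p-values below 0.05 and the horizontal line parts cytosolic from mitochondrial members. The asterisks fall on TrpRS-m (in 2 columns), ArgRS-m, IleRS-m and LeuRS-m in females and on SerRS (in 2 columns), AlaRS, ValRS and AspRS-m in males.

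Whether the change from 2 to 8 h differed between the sexes was tested on the 72 libraries of the 3 foods with DMSO. No member passed, nor did any of 12967 genes (0%), in edgeR; 5 members had an unadjusted p under 0.05, and DESeq2 called 0. The smallest p belonged to TrpRS-m (difference of log2 changes 0.86, SE 0.31, adjusted p = 0.381, edgeR), followed by LysRS at 0.48 (SE 0.18). The main fit holds the library with male transcripts. Over 5 other settings, among them a fit without that library, the difference for TrpRS-m lay between 0.57 and 0.87. The median over all genes was 0.14.

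DMSO was set at 4 levels, and no synthetase passed any of the 3 contrasts in edgeR, with 2, 0 and 0 members at an unadjusted p under 0.05 and none by DESeq2. Fed females on 0.4% DMSO against none (9 flies against 9 over 2, 4 and 8 h) had the smallest p at SerRS, with 126 ± 14.2 against 142 ± 11.8 CPM (SD, log2 change -0.17, SE 0.08, adjusted p = 0.9999 in edgeR). Without the library with male transcripts SerRS on 0.4% DMSO was at 130 ± 10.7 CPM (n = 8). In this contrast 0.00994% of genes were called. Fed males on 0.4% against 0.1% (9 against 9) had it at TrpRS (0.15, SE 0.09, adjusted p = 0.816, edgeR), and no gene was called (0%). Males at 8 h on any DMSO against none (9 against 3) had it at GlyRS (0.32, SE 0.17, adjusted p = 0.923, edgeR), with 0.00791% of genes called. Levels of TrpRS-m in fed flies were 41.0 ± 7.6, 41.7 ± 7.5, 37.2 ± 11.7 and 51.5 ± 37.4 CPM in females without DMSO and with 0.1, 0.2 and 0.4% (SD, n = 9 each), the last with the library that carries male transcripts and 39.6 ± 12.01 without it (n = 8). In males they were 351 ± 67.5, 342 ± 116, 324 ± 48.8 and 319 ± 112 CPM, where the food without DMSO at 2 h and in part at 4 h came from another run. The ranges of the 4 levels overlapped in both sexes.

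Companion genes were followed over the same times. In females at 2 h against 0 h AsnS rose (log2 change 0.60, SE 0.14, adjusted p = 0.00696, edgeR), as did the glutamate transporters Eaat1 (0.77, SE 0.27) and Eaat2 (0.76, SE 0.25), and trbl fell (-0.40, SE 0.12). In all, 1 of 13 amino acid stress genes was higher and 1 lower, and 2 of 10 transporters were higher, beside 9.27% of all genes higher and 4.37% lower. At 8 h against 2 h, where 18.7% of all genes were lower and 11.1% higher, 4 of 13 stress genes were lower and 1 higher, with Nmdmc, an enzyme of the folate cycle, at -1.19 (SE 0.34), and 4 of 10 transporters were lower, with NAAT1 at -1.08 (SE 0.35) and Eaat2 at -0.94 (SE 0.25). GatA, a subunit of the amidotransferase that makes mitochondrial glutaminyl-tRNA, was the charging partner called there, higher at 0.33 (SE 0.12). In males at 8 h against 0 h crc, the fly ATF4, was higher (0.29, SE 0.09) and its upstream kinase Gcn2 lower (-0.48, SE 0.16), 1 of 13 stress genes in each direction beside 6.95% of all genes higher and 4.38% lower. Cytosolic ribosomal proteins were lower at 8 h against 0 h in females in 43 of 80 cases, beside 3.09% of all genes, with a median of -0.36, where no cytosolic synthetase was called and their median was -0.01.

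Some single flies stood far from the others in a few members. In females AspRS, for aspartate, had a median of 164 CPM over 48 flies and reached 399.9 in the fly at 4 h, 0.2% DMSO, replicate 3, and 328 in the fly at 2 h, 0.2% DMSO, replicate 2. AsnRS, with a median of 168 CPM, was highest in the same flies, at 402 and 248. TyrRS, for tyrosine, with a median of 126 CPM, was highest at 219 in the first of them, then at 184 in the fly at 0 h on food without DMSO, replicate 1, and at 173 in the second. The other flies of the group at 4 h and 0.2% DMSO had 193 and 217 CPM of AspRS and 178 and 167 of AsnRS. The flies with the highest AspRS and AsnRS had 20.4 and 17.6 summed CPM of egg shell markers, where the female median was 3442. The flies with the next lowest sums, 32.5 at 4 h and 0.4% DMSO, replicate 2, and 73.7 at 8 h without DMSO, replicate 3, had 162 and 158 CPM of AspRS and 158 and 159 of AsnRS, below the medians. The fly after these, with 80.0 at 4 h and 0.1% DMSO, replicate 1, had 236 CPM of AspRS. Its AspRS and AsnRS both lay above the medians.

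Markers of the immune response were high in some of the same flies. The 8 antimicrobial and related genes summed to a median of 581 CPM in females and of 109 in males. They reached 5248 in the female with 399.9 CPM of AspRS, but 977 in the female with 328 CPM of AspRS. In the female at 0 h with 184 CPM of TyrRS they reached 29648, where AspRS stood at 252 and AsnRS at 196 CPM. A female at 0 h and 0.2% DMSO, replicate 3, had 6487 and no high member among these (AspRS 174, TyrRS 126, AsnRS 169 CPM). In males they reached 52054 in the shallowest library, at 4 h and 0.4% DMSO, replicate 1, where AspRS stood at 221 CPM (male median 56.0) and TyrRS at 156 (median 59.6) but AsnRS at 68.6 (median 61.6). In the other 47 male flies the sum stayed at or below 309 and AspRS at or below 76.0. The part of the immune response, the ovary and depth in these values was not tested.

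**Figure D4:**
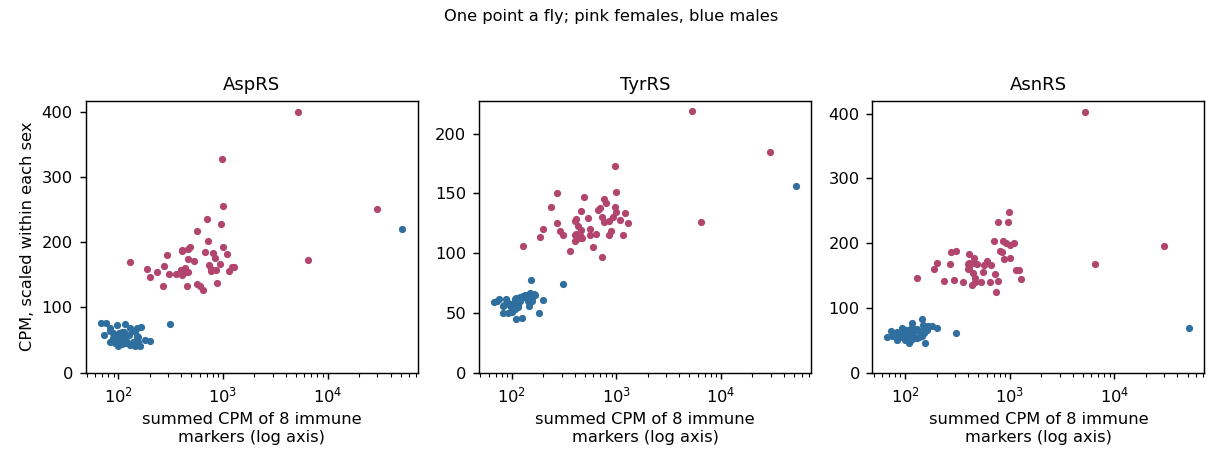
CPM of AspRS, TyrRS and AsnRS (vertical axes, from 0, scaled within each sex) against the summed CPM of 8 immune markers (horizontal log axis) in 48 females (pink) and 48 males (blue), 1 point a fly. The male at 52054 stands out for AspRS (221) and TyrRS (156) and not for AsnRS (68.6), and the female at 5248 for all 3.

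The same shallow male stood at the low end for the members that were high in males. TrpRS-m had a median of 372 CPM over 48 males and was lowest in the fly at 8 h, 0.1% DMSO, replicate 1, at 91.3, and in that shallow male, at 107. CysRS-m was lowest in the same flies, at 52.3 and 43.8 CPM beside a median of 121, and ValRS-m at 14.4 and 5.72 beside 43.1. Their testis markers summed to 4420 and 4613 CPM, among the 3 lowest of the male libraries, whose median was 7281. The other fly of these 3, at 0 h on food without DMSO, replicate 2, had 4586 and TrpRS-m at 228 CPM. Among females the library with male transcripts had 147 CPM of TrpRS-m and 70.0 of CysRS-m, where the other 47 reached at most 57.8 and 23.2, and 21.3 of ValRS-m, inside the range of the others.

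**Figure D5:**
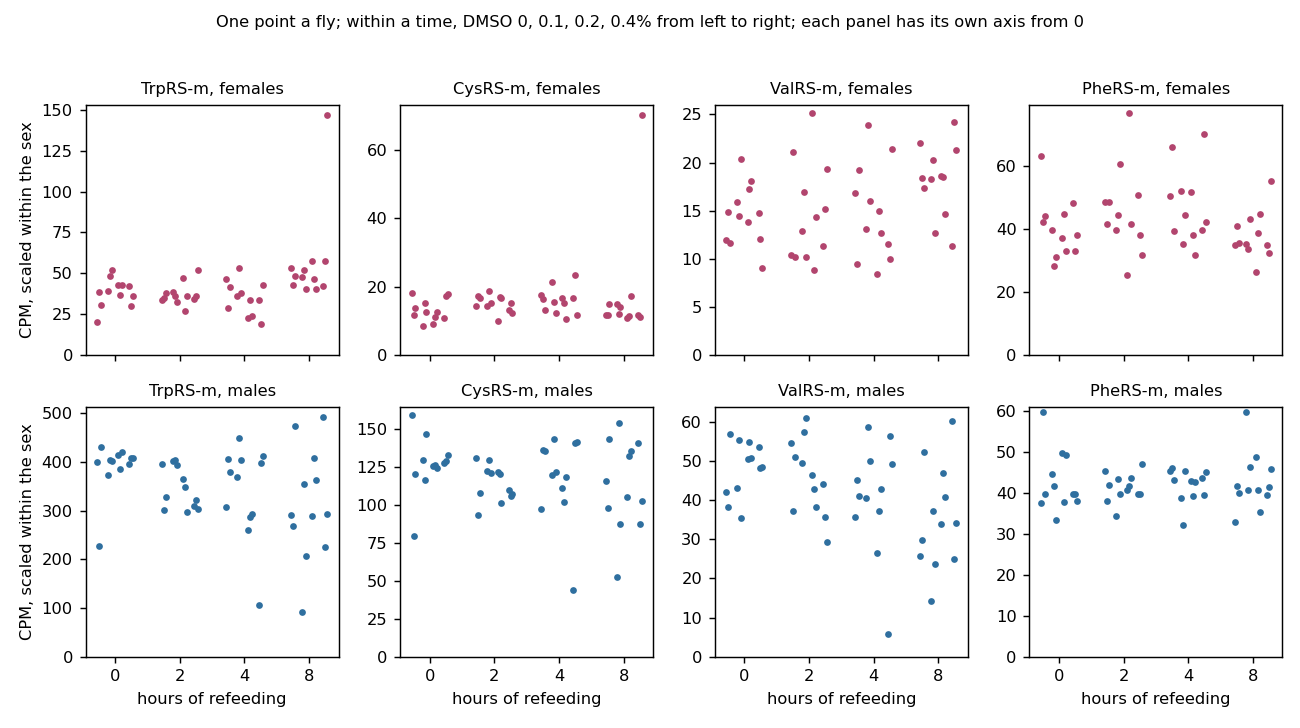
CPM of 4 mitochondrial members in each fly by hours of refeeding (horizontal axis) and DMSO level (from left to right within a time), females above and males below, each panel with its own axis from 0. The single high female point for TrpRS-m (147) and CysRS-m (70.0) is the library with male transcripts, and the lowest male points for TrpRS-m (91.3 and 107) are the flies named in the text.

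Correlations between members within a sex are given as a description over 48 libraries that share plates, conditions and scaling. No value for pairs of other genes was set beside them. The median Spearman correlation between pairs of cytosolic members was 0.44 in females and 0.36 in males, and between pairs of mitochondrial members 0.10 and 0.03. GlyRS followed the mean of the other cytosolic members most closely in females (rho 0.89) and AlaRS in males (0.86), while AspRS (0.15) and TyrRS (0.19) did so least in females and TrpRS (-0.11) in males. The genes whose levels lay closest to the cytosolic mean were La, an RNA-binding protein of tRNA maturation, and the chaperonin subunits CCT5, CCT3 and CCT7 in females (rho 0.83 to 0.81 among 10026 genes) and mod, CCT3, CCT7 and CCT5 in males (0.86 to 0.79 among 12610).

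The spread between flies differed among members. In females the coefficient of variation over 48 flies ran from 9.21% for GlnRS to 27.4% for AspRS in cytosolic members, and in mitochondrial ones from 10.5% for AlaRS-m to 55.9% for CysRS-m. Without the library with male transcripts CysRS-m had 22.1%, and the highest mitochondrial value was 28.5% for ValRS-m. In males it ran from 10.4% for ThrRS to 43.4% for AspRS and from 13.0% for PheRS-m to 42.2% for GluRS-m. Without the shallowest male AspRS had 18.3%, and the highest values were 24.1% for AlaRS and 33.5% for GluRS-m. The low end of the counts limits the small members. In males GluRS-m, IleRS-m, AsnRS-m, ProRS-m and ArgRS-m had medians of 2.61, 4.07, 4.66, 5.21 and 5.63 CPM. ProRS-m had 0 counts in the shallowest male, which allows up to 5.72 CPM. LeuRS-m, SerRS-m, TyrRS-m, MetRS-m and AlaRS-m lay between 9.53 and 18.1 CPM in the median male and between 21.01 and 38.1 in the median female.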

How the data were processed

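Poly(A)-selected, stranded RNA-seq libraries of 96 single flies were sequenced per the labels. The authors deposited whole-number read counts per gene for each library, with no normalization; the submitters' processing notes name HTSeq 0.6.1p1, TopHat2 2.1.0, STAR 2.4.2a, CASAVA 1.8.2 and bcl2fastq 1.8, with no role for each. Their build was not given in the sources used here. Such counters can drop reads shared by genes that overlap on a strand, which applies to HisRS (with Bx) and AspRS (with asRNA:CR43468).

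The 96 spike-in rows were set aside, as were the 5 summary lines, which held a median of 12.9% of a library's reads. Ribosomal RNA genes took 4.81 to 51.4% of gene counts. Symbols were found for 17155 of 17370 genes. A library's 3 counts equalled a median of 0.628 CPM; intervals of this kind cover counting error only. Replicates were separate flies, and no pair of them was alike within sampling noise (lowest chi-square per degree of freedom 3.79 over 96 pairs).

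Counts were tested with edgeR 4.0.16 in R 4.3.3 (quasi-likelihood, TMM, default expression filter, Benjamini-Hochberg over all genes at 0.05), after it was tested on simulated data. Alternatives were DESeq2 1.42.0, other scalings, no filter, a replicate block, run as a factor, subsets of foods or times, and leaving out libraries. All flies of both sexes shared a run only on food without DMSO at 0 and 2 h, which set that comparison. At 4 h on that food the males came from the run of the females only in part. Lengths are exon unions from an annotation whose build may differ from the authors'; the planned coding lengths from proteins and promoter letters were not used here.

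The members and lists were chosen with earlier results of these data known. Every member is named; in each comparison all members called are named, the 8 largest in full, or the member with the smallest p where none is called, and at most 4 called members of each companion list. Markers and single flies far from the rest were picked out after their values were seen.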

Additional observations from a re-analysis of the deposited data

How the results depend on the processing

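Counts below are of synthetases called, without the share of all genes under the same setting, so they show only how the calls depend on the setting. In the main fits 65.9% of all genes were called between the sexes. In females it was 13.6% at 2 h and 3.59% at 8 h against 0 h, and 29.8% at 8 h against 2 h. In males it was 1.4, 0.957 and 11.3% at 2, 4 and 8 h against 0 h, and 4.24% at 8 h against 2 h. The comparison of the sexes gave 29 and between 23 and 31 under its other settings, 23 with 0 h flies and 26 with 2 h flies, and 27 to 30 with 1 library left out. Among the called members, the sign that reversed was that of TrpRS, at 0.18 by library size alone, where the median of all genes moved by 0.64; relative to that median TrpRS was at -0.26. In females, 2 h against 0 h gave 1 by DESeq2 and 0 to 1 with a library left out (1 without 2 h 0% replicate 3, 2 h 0.1% replicate 1 or 2 h 0.4% replicate 3). Females at 8 h against 0 h gave 0 with no filter, with the replicate block, without the library with male transcripts, without libraries of high ribosomal RNA or low counts, on the 3 foods with DMSO and on food without it, and 0 to 1 with a library left out. Females at 8 h against 2 h gave 1 with no filter, 9 without the libraries of high ribosomal RNA, 0 on the 3 foods with DMSO, 0 on food without it, and 2 to 9 with a library left out (9 without 2 h 0.2% replicate 1). Males at 2 h against 0 h gave 0 with the replicate block, with run as a factor and without the library with 2 labelled times, and 0 to 1 with a library left out; 4 h against 0 h gave 0 to 1 (1 without 4 h 0.2% replicate 2). Males at 8 h against 0 h gave 0 with no filter, with the block and without the library with 2 labelled times, 5 without libraries of high ribosomal RNA or low counts, 4 by DESeq2, and 0 to 5 with a library left out (5 without 8 h 0.4% replicate 1, 4 without 8 h 0.1% replicate 2). Males at 8 h against 2 h gave 1 with the replicate block (adjusted p = 0.0554 for AlaRS and 0.0507 for ValRS in edgeR, with log2 changes of -0.42 and -0.39 as without it), 5 without libraries of high ribosomal RNA or low counts, and 0 to 4 with a library left out (4 without 8 h 0.1% replicate 1). The contrasts of DMSO and the interaction gave 0 under every setting run. The cause of these shifts was not tested. The settings by time in the sexes, by library size alone, by upper quartile and without high ribosomal RNA were chosen after seeing the data. Replicate numbers did not pair the libraries: same-numbered libraries had a mean correlation of -0.024 in females and -0.0099 in males, and 7 and 15 of 48 correlated best with their own number. Leave-out fits of the interaction reused the dispersion trend of the full fit. Members under about 5 CPM in males rest on few counts, down to 0.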
